A study of Mus musculus with 26 samples.

Results

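Interferon-stimulated genes are the genes that cells switch on when type I, type II or type III interferon binds its receptor. A list of 35 such genes was followed in inguinal subcutaneous white adipose tissue. Each member was read at the array probe that carries its gene name, and at the probe of highest mean where a gene had several. All 35 members were on the array and passed the filter on dim spots, at 59 of the 38832 probes tested, which stood for 25407 genes.

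The study asked what the loss of the glucose-responsive transcription factor ChREBP, or of its shorter isoform ChREBPβ alone, does to gene expression in tissues of C57BL6/J male mice. Each of the 26 mice gave 1 single-colour array covering the whole genome. A fast of 24 h came before 18 h of refeeding, in which the drinking water held 20% glucose. The groups were total ChREBP-KO mice (n = 7), which are null for the whole Mlxipl gene that encodes ChREBP, WT mice of that line (n = 7), ChREBPβ-KO mice (n = 5), in which CRISPR/Cas9 removed the exon that only ChREBPβ uses, and WT littermates of the ChREBPβ line (n = 7). Both deletions were germline, so every cell type of the fat pad carried them, and the study describes more than 1 ChREBPβ-deficient line per strain, while the labels do not say which line an animal came from. At the Mlxipl probe with the largest difference, the log2 intensity was lower by 2.21 in total ChREBP-KO mice and by 1.54 in ChREBPβ-KO mice, with no overlap between KO and WT arrays in either line (SE 0.13 and 0.14, limma adjusted p = 2.14e-12 and 3.22e-06). Another Mlxipl probe gave -0.91 and -0.68 in the same order (limma adjusted p = 2.29e-06 and 0.058). The last one showed no clear loss, at -0.14 and 0.04 (limma adjusted p = 0.14 and 0.97). Between 70.2% and 76.5% of spots were well above background on each array, no spot was saturated, and arrays correlated with each other at r = 0.953 to 0.997.

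Type I interferons signal through receptor-bound kinases to a complex that holds STAT2 and IRF9 and binds the interferon-stimulated response element (ISRE) in the promoters of its target genes. Interferon γ acts through another element, the γ-activated site (GAS). The products of the target genes bind viral RNA, cut it, block its translation or trap virions, and several of them (STAT2, IRF9, IRF7 and the RNA sensors) feed back on the pathway. In adipose tissue, adipocytes, macrophages, lymphocytes and endothelial cells can all respond to interferon.

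The sequence just before the start site is shown for 6 members, chosen because they are classical targets (Isg15 and Ifit1) or lower in total ChREBP-KO mice (Oas1a, Oas3, Igtp and Trim30a) and hold the core of the ISRE. Each is the 120 bases before the transcription start in RefSeq (GRCm38.p6), read 5′ to 3′ on the strand of the gene, with matches to the core in capitals. The core was searched on both strands as GAAA, any 2 bases and GAAA again, which on the other strand reads TTTC, any 2 bases and TTTC, and neighbouring matches can overlap by 4 bases. The positions are chr4:156200819-156200938 (minus strand) for Isg15, chr19:34640769-34640888 (plus) for Ifit1, chr5:120907526-120907645 (minus) for Oas1a, chr5:120777660-120777779 (minus) for Oas3, chr11:58199436-58199555 (plus) for Igtp and chr7:104465194-104465313 (minus) for Trim30a.
Isg15: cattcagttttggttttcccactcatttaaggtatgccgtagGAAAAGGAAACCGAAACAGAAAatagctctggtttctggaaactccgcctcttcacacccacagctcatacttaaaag
Ifit1: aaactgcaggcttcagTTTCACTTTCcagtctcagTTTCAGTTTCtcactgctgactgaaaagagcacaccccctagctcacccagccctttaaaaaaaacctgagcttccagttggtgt
Oas1a: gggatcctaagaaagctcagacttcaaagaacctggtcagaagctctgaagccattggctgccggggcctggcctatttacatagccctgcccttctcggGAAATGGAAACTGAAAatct
Oas3: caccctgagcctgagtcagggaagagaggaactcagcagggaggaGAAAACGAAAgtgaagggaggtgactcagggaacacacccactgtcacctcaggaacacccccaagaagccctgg
Igtp: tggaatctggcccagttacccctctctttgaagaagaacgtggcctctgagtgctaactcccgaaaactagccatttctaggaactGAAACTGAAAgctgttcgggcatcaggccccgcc
Trim30a: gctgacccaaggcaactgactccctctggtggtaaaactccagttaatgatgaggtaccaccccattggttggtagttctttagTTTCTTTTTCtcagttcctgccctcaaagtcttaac

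Promoters of 26 members could be matched in the table, from 250 bases before to 50 bases after the start. The ISRE core was present on either strand in 17 of the 26 (65.4%), against 3.44% of all 32851 promoters and 3.99% of the 27025 genes they belong to. In 7 members a promoter held several matches: in Isg15 3 of them run into each other, and in Oas1a, Bst2, Gbp3 and Irgm1 a pair overlaps. The GAS motif TTCNNNGAA was present in 6 members, against 9.55% of all genes. A match describes these letters only and says nothing about binding in these tissues.

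The largest feature of the members was not a difference between groups. On 2 single arrays, of 1 WT mouse and 1 KO mouse of the ChREBPβ line, nearly the whole list stood several-fold above the other mice of the same group. The mean log2 intensity over the 35 members was 12.54 on the array of WT mouse 3 of the ChREBPβ line, whereas the other 6 WT mice of that line lay between 10.02 and 10.89. In the ChREBPβ-KO mice the means were 10.34, 10.02, 12.33, 10.24 and 10.22 for mice 1, 2, 4, 5 and 6. Mouse 4 was thus the only ChREBPβ-KO mouse outside the range of the other WT mice of its line.

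**Figure D1:**
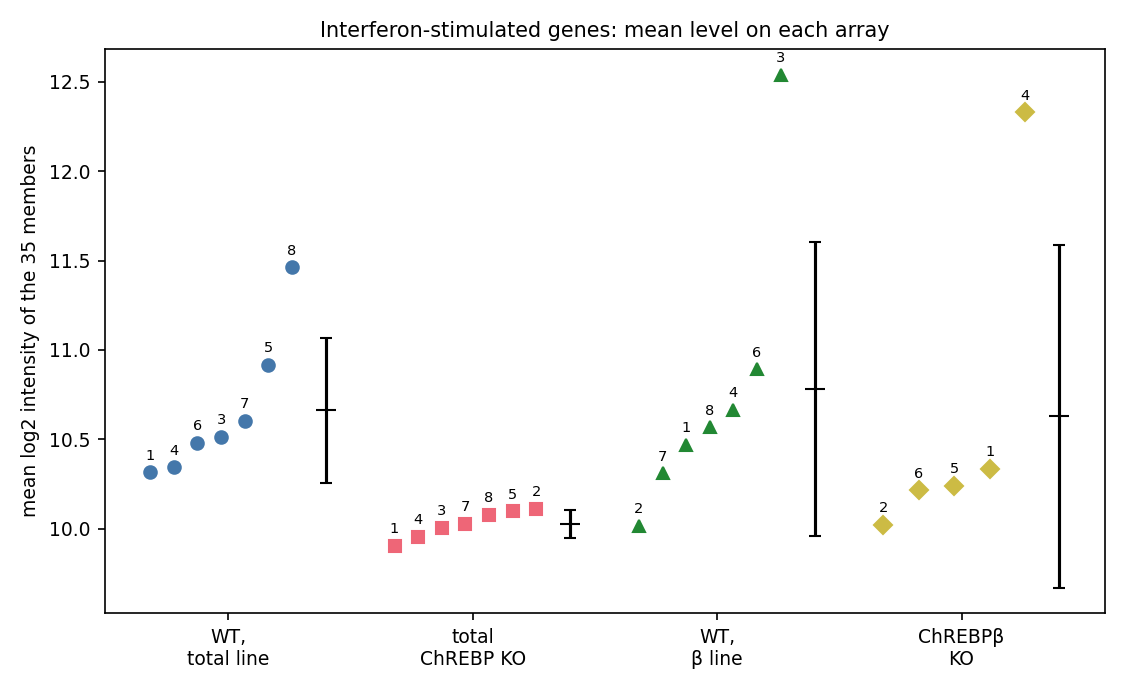
Mean log2 intensity of the 35 members (vertical axis) on each array, by group. Numbers are replicate numbers, and the black bar to the right of each group is its mean ± SD; WT mouse 3 (12.54) and KO mouse 4 (12.33) of the ChREBPβ line stand apart, and the total ChREBP-KO mice lie between 9.91 and 10.11.

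On the array of WT mouse 3, all 35 members were at their highest of the 7 WT arrays, against 16.9% of all genes. The differences from the median of the other 6 arrays corresponded to folds of 1.62 to 10.08, with a median of 4.07, and 31 members were more than 2-fold higher. On the array of ChREBPβ-KO mouse 4, all 35 members were again at their highest of the group, against 20.1% of all genes, with folds of 1.48 to 12.4, a median of 3.71 and 33 members above 2-fold. Over all genes, 1.99% and 3.04% stood more than 2-fold above the other arrays of the group on these arrays. The 2 mice differ in genotype, wash batch and slide: WT mouse 3 was in wash batch 2 and KO mouse 4 in wash batch 3. The arrays that shared their slides were those of total ChREBP-KO mouse 2, with a member mean of 10.11, the highest of its group, and of WT mouse 6 of the total line, with 10.48.

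The OAS family stood high on both arrays. The family includes enzymes that make oligoadenylates when they meet double-stranded RNA, but not every member has this activity. Oas1a, Oas2, Oas3, Oasl1 and Oasl2 were 9.27-, 6.57-, 11.4-, 9.20- and 7.85-fold higher on the array of KO mouse 4 than the median of its group. On the array of WT mouse 3 the same genes stood 5.60-, 3.70-, 7.34-, 6.13- and 5.37-fold higher. Isg15, the ubiquitin-like modifier whose promoter is shown above, had a log2 intensity of 15.60 in WT mouse 3 and 15.35 in KO mouse 4. In the other WT mice of the line it did not go above 12.80, and the other ChREBPβ-KO mice lay at 12.27, 11.56, 11.96 and 12.13. Usp18, which removes ISG15 from its targets and dampens receptor signalling, followed with 4.68-fold and 6.51-fold differences.

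Among the IFIT genes, whose proteins hold foreign RNA ends, Ifit1 was 6.10-fold, Ifit2 4.07-fold and Ifit3 9.93-fold higher in WT mouse 3. In KO mouse 4 the folds were 7.35, 3.73 and 7.94 in the same order. The Mx family genes Mx1 and Mx2 stood 7.43- and 3.98-fold above the group in WT mouse 3 and 12.4- and 5.11-fold in KO mouse 4, where Mx1 had the largest fold of the list. Rsad2, which encodes viperin, and its neighbour Cmpk2 were 3.60- and 3.24-fold higher in WT mouse 3, and 3.71- and 3.38-fold in KO mouse 4. The transcription factor Irf7 reached a log2 intensity of 16.08 in WT mouse 3 and 15.67 in KO mouse 4, against medians of 13.14 and 12.52 in the other mice of their groups. Irf9 (2.10- and 2.13-fold) and Stat2 (3.26- and 3.19-fold) were lifted less.

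Members that sense nucleic acids were also higher. Ifih1 and Ddx58, which encode the RNA sensors MDA5 and RIG-I, were 1.96- and 2.37-fold higher in WT mouse 3 and 2.54- and 2.46-fold higher in KO mouse 4. Dhx58 (3.48- and 3.69-fold) and Zbp1 (5.63- and 4.90-fold) moved further, and Eif2ak2, the kinase PKR that halts translation, least (1.82- and 2.01-fold). The remaining effectors ran from Ifi35 (1.62- and 1.66-fold) to Ifi44 (6.35- and 8.35-fold), with Bst2, the tetherin that holds virions at the membrane, at 4.15- and 3.42-fold.

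**Figure D2:**
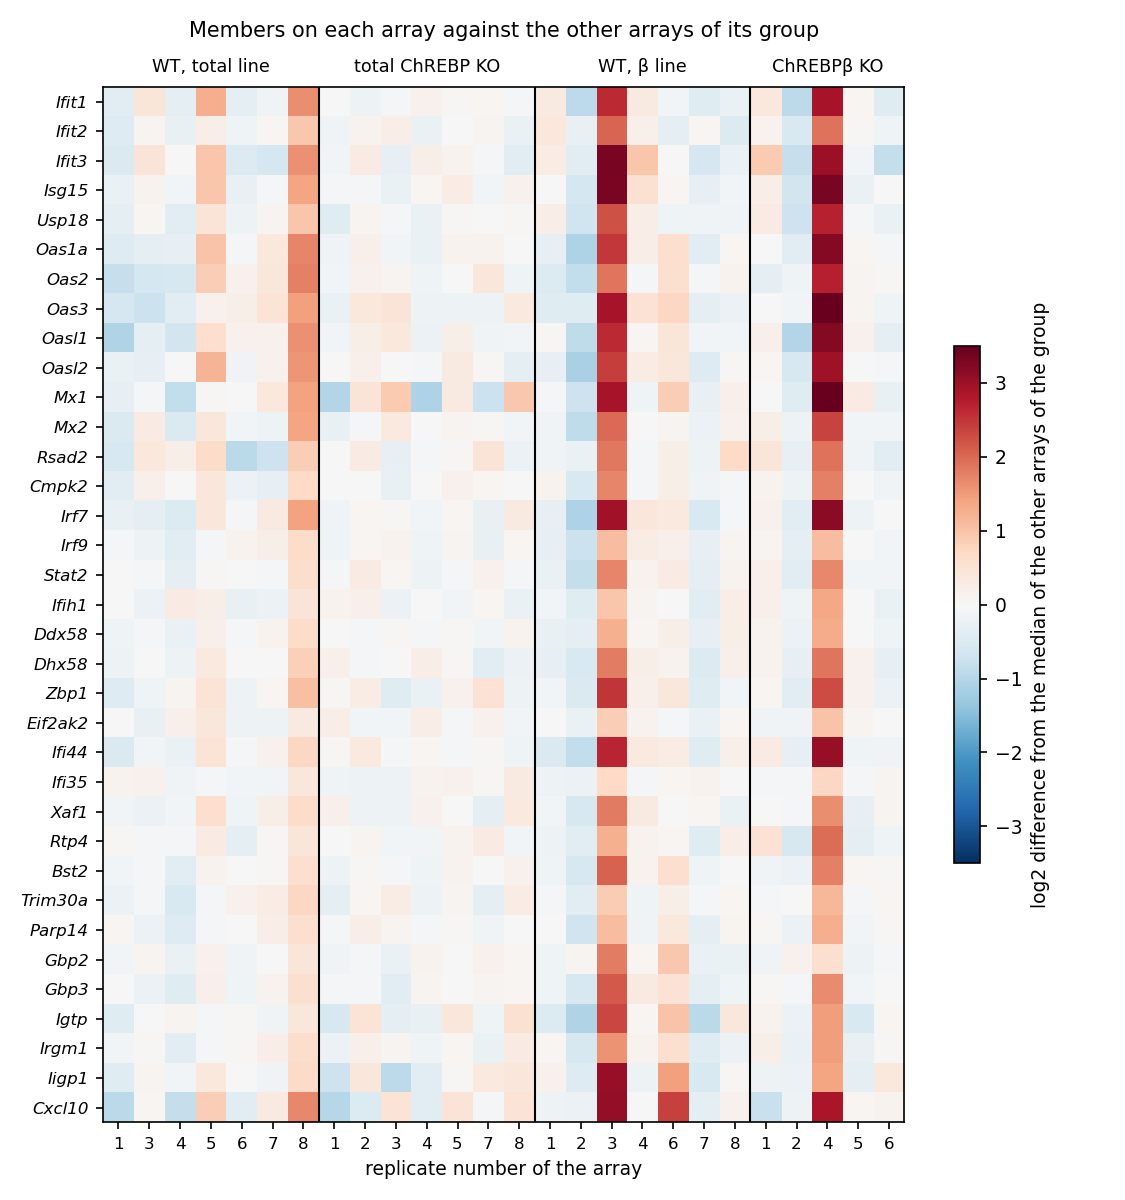
Log2 difference of each member (rows) on each array (columns, numbered by replicate within the 4 groups) from the median of the other arrays of its group; red is higher and blue is lower. WT mouse 3 and KO mouse 4 of the ChREBPβ line are red in all 35 rows, and WT mouse 8 of the total line is the highest of its group in 34 rows.

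The same members did not lead on both arrays. The guanylate-binding proteins and immunity-related GTPases, which interferon γ induces strongly and which attack vacuoles of intracellular microbes, stood higher in WT mouse 3 than in KO mouse 4: Iigp1 by 8.30-fold against 2.59-fold, Igtp by 5.02-fold against 2.77-fold, Gbp2 by 3.46-fold against 1.48-fold and Gbp3 by 4.40-fold against 3.15-fold. Irgm1 was near equal at 2.96- and 2.77-fold. Mx1 and the 5 OAS genes had the larger folds in KO mouse 4. With 1 mouse on each side this difference has no replicate check. WT mouse 6 of the ChREBPβ line also stood above the other arrays of its group in these GTPases, with a median of 0.26 over all members. Its log2 differences were 1.44 for Iigp1, 0.99 for Igtp, 0.95 for Gbp2, 0.56 for Irgm1 and 0.52 for Gbp3. The largest difference on that array was not in a GTPase but in the chemokine gene Cxcl10, at 2.39. Cxcl10 stood 8.48-fold higher in WT mouse 3 and 7.29-fold higher in KO mouse 4.

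**Figure D3:**
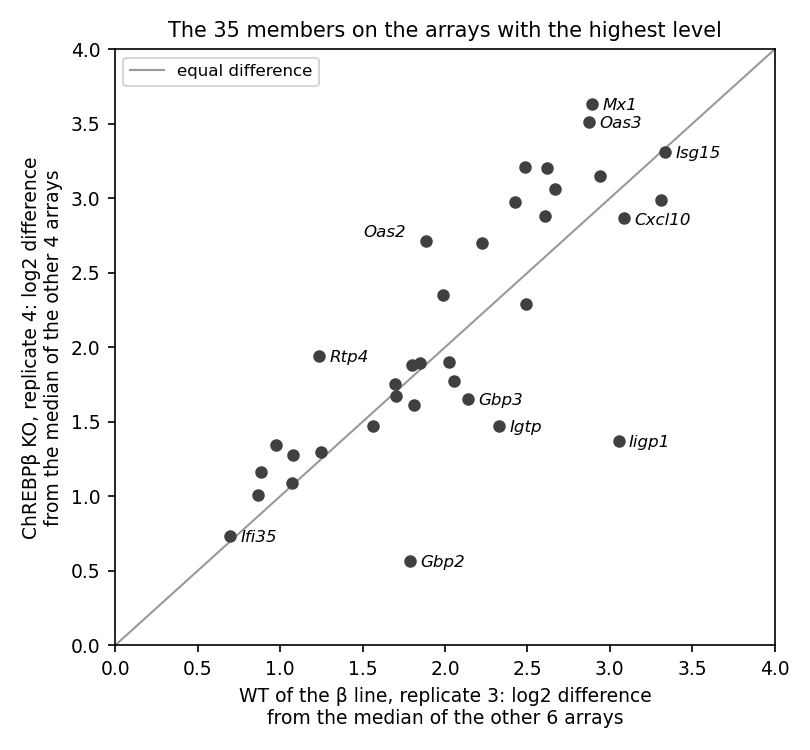
Log2 difference of each of the 35 members in WT mouse 3 of the ChREBPβ line (horizontal axis, against the median of the other 6 WT arrays) and in ChREBPβ-KO mouse 4 (vertical axis, against the median of the other 4 KO arrays). The grey line marks equal differences; Iigp1 and Gbp2 lie far below it, and Mx1, Oas2 and Rtp4 above it.

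A smaller step of the same kind was present in the total line. WT mouse 8 had the highest value of its group in 34 of 35 members, against 19.7% of all genes, with folds of 1.25 to 3.39 and a median of 1.66. Its mean over the members was 11.46, next to 10.92 in WT mouse 5 and 10.32 to 10.60 in the other WT mice of the line. At the other end, WT mouse 2 of the ChREBPβ line was the lowest of its group in 28 members (14.0% of all genes) and ChREBPβ-KO mouse 2 in 21 (17.7%). The 7 total ChREBP-KO mice were the most even group, with means between 9.91 and 10.11 (SD 0.08), against an SD of 0.40 in their WT mice.

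Marker genes of other cells were read on the same arrays. The mean log2 intensity of 15 lymphocyte markers was 7.62 in WT mouse 3 (range of the group 7.21 to 7.95) and 7.42 in KO mouse 4 (7.18 to 8.68, with 1 value filled in by the group mean), so lymphocyte markers were within the range of the other mice of the ChREBPβ line on both arrays. In WT mouse 8 of the total line the level was 12.03, the highest of its group (from 10.44). The 10 macrophage markers stood at 12.09 in WT mouse 3, between 11.54 and 12.56 in its group. WT mouse 6 had the highest macrophage level of that group (12.56) and a member mean of 10.89. KO mouse 4 (12.44) and WT mouse 8 (12.00) were the highest of their groups in the macrophage level, which began at 10.88 and 10.59. Skeletal muscle markers were also highest of the group in KO mouse 4 (13.03). In WT mouse 3 their level was 11.63, in a group that ran from 6.85 to 12.41. The highest there was WT mouse 1, with a member mean of 10.47. The median muscle marker stood above the other arrays of the group by 2.51 on the log2 scale in WT mouse 3 and by 4.23 in KO mouse 4. The part of macrophages and of muscle in the single-mouse levels was not tested.

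**Figure D4:**
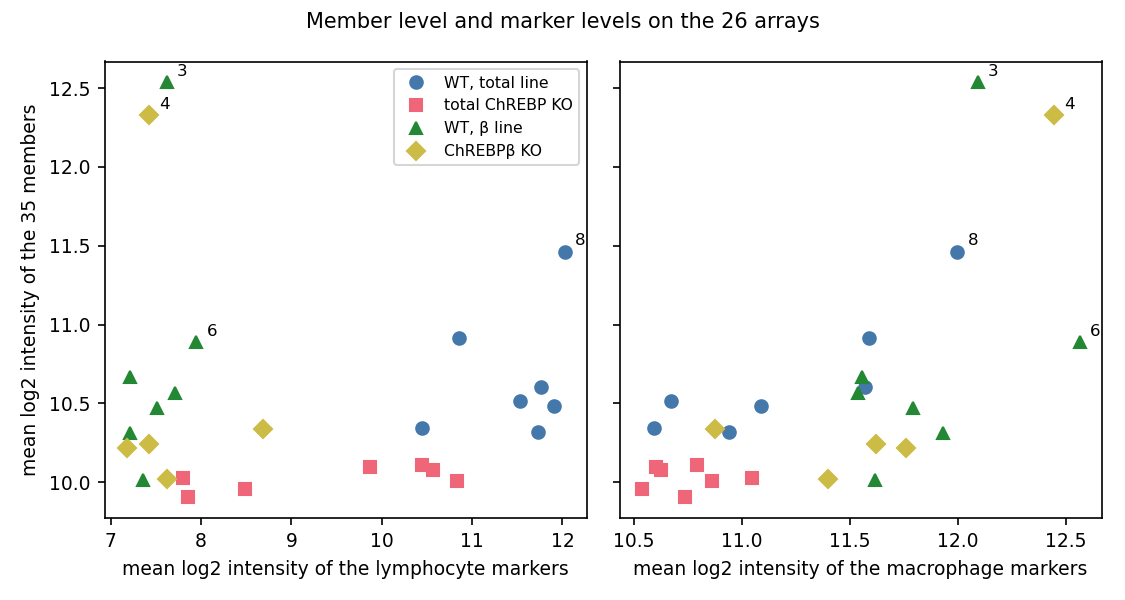
Mean log2 intensity of the 35 members (vertical axes) against the mean log2 intensity of 15 lymphocyte markers (left) and 10 macrophage markers (right) on the 26 arrays, by group, with the replicate number of 4 arrays. The 2 highest points lie at lymphocyte levels of 7.62 and 7.42, within the low range of the ChREBPβ line, and at macrophage levels of 12.09 and 12.44.

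Among the interferon genes themselves, the only Ifnb1 probe, for interferon β, was too dim on most arrays to be tested. The scanner software called it well above background on 2 of 26 arrays, and these were WT mouse 3 and KO mouse 4 of the ChREBPβ line. Its signal as processed by that software was 7.40 and 20.8 intensity units there, against 1.21 to 5.49 on the other 24 arrays. The raw signal divided by the local background was 2.44 in KO mouse 4, above the 0.83 to 1.40 of the other 24 arrays. In WT mouse 3 it was 1.26 and within that range. The raw median signal itself was 39.0 in KO mouse 4, above the 15.0 to 30.0 of the other 24 arrays, but in WT mouse 3 it was 24.0 and within that range. Of 56605 probes, 8 (0.0141%) were called well above background on exactly these 2 arrays. This gene was singled out after its values were seen. For Ifna genes, 8 of 13 probes were well above background on every array and 3 on none, and the sequences of these genes are so alike that a probe may read several of them. Ifng, for interferon γ, stood 1.31 on the log2 scale above the group in WT mouse 3 and 0.29 in KO mouse 4, and was not the highest WT value on the former.

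The members moved together across mice. After group means were taken out, each member correlated with the mean of the list at Pearson r = 0.80 to 0.99 over the 26 arrays (median 0.95), led by Irf7 (0.99), with Gbp2 the lowest. The points share 2 arrays that set much of the spread, and each member is part of the mean. Without the 2 arrays the values were between 0.61 and 0.98. Of the 50 genes most like the list mean among all 25407, 22 were members. The 10 other genes most like it were Phf11d (r = 0.99), Oas1f, Gm9706, Phf11c, Phf11a, 2 probes named only by genome position, Tor3a, Rnf213 and Slfn3 (0.97). They were 1.24 to 3.40 above the group on the log2 scale in WT mouse 3 and 1.42 to 3.57 in KO mouse 4.

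In the comparison of total ChREBP-KO mice with their WT mice, the differences were below 0 in 32 of 35 members, against 42.6% of all genes, with a median of -0.68 against 0.05 over all genes. By limma with Benjamini-Hochberg adjustment over all probes, 9 members passed the test and all 9 were lower. Of all genes, 19.7% passed in that direction and 45.9% in either, so the 9 of 35 were not far from the background. In 14 members every KO array was below every WT array, against 4.68% of all genes. In bulk tissue, fewer cells of a type and less RNA per cell cannot be told apart.

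**Figure D5:**
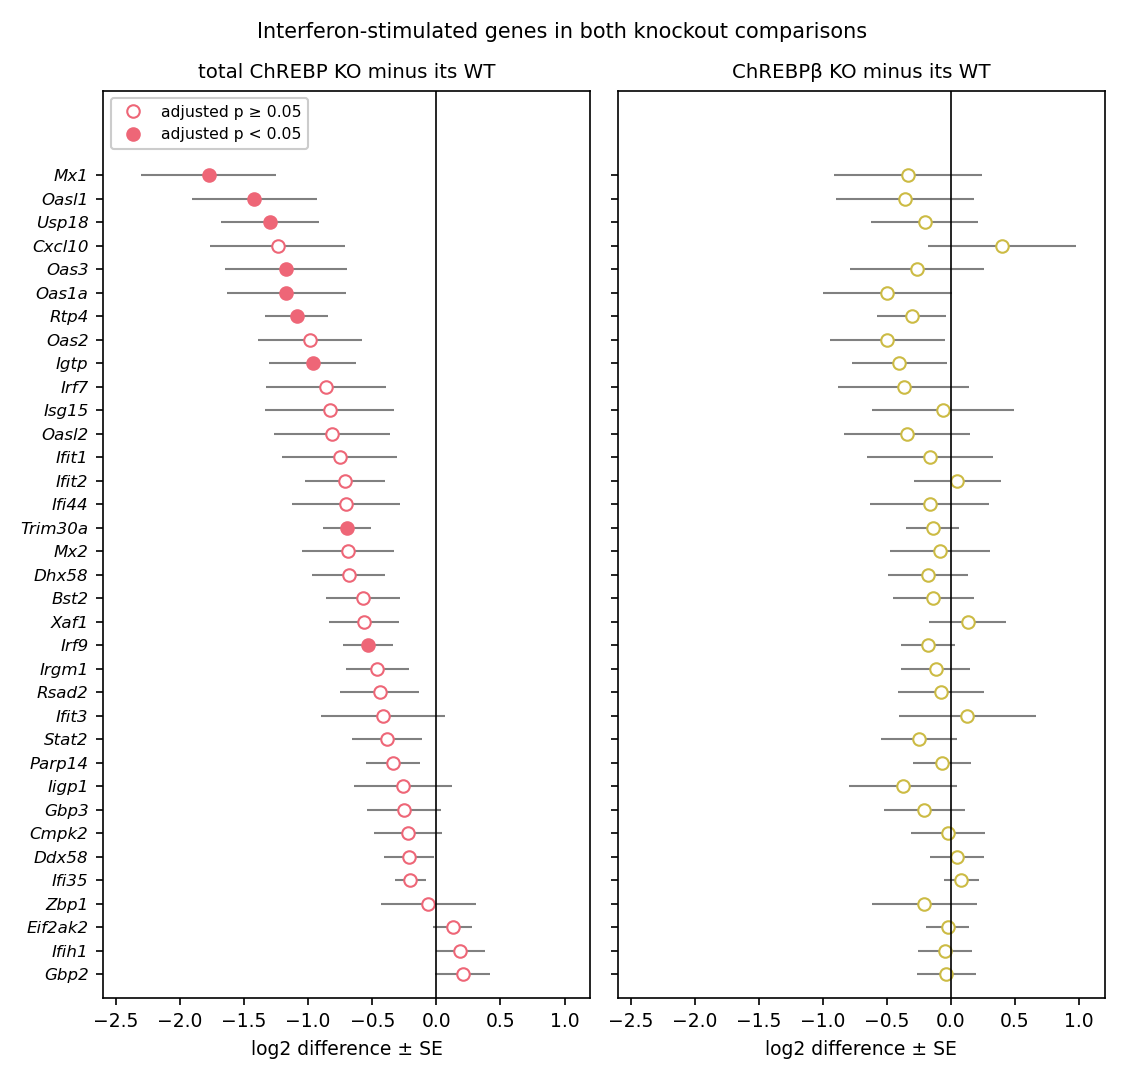
Log2 difference between KO and WT for each member, total ChREBP-KO on the left and ChREBPβ-KO on the right, with the standard error of the fit as bars and filled points where the adjusted p was below 0.05. Members are ordered by the left panel, where 32 of 35 points lie below 0 and 9 are filled; no point is filled on the right.

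Mx1 had the largest difference. Its log2 intensity was between 8.02 and 10.26 in WT mice (median 8.87) and between 6.35 and 7.97 in total ChREBP-KO mice (median 7.38), and it fell by 1.78 (SE 0.53, adjusted p = 0.0078). The groups did not overlap, but the highest KO mouse nearly reached the lowest WT mouse. The second tested Mx1 probe gave -1.28 (SE 0.53) with an adjusted p of 0.054 and did not pass. The probe lies at chr16:97668644-97668703 (mm9).

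Of the 5 OAS family members, 3 passed. Oasl1 lay between 9.55 and 12.05 in WT mice (median 10.59) and between 8.96 and 9.43 in KO mice (median 9.07), a fall of 1.42 (SE 0.49, adjusted p = 0.020), and both of its probes passed. Oas1a fell by 1.17 (SE 0.46, adjusted p = 0.041), from 11.22 to 13.17 in WT mice to 10.48 to 10.82 in KO mice. Oas3 fell by 1.17 (SE 0.48, adjusted p = 0.048), with its spot well above background on 3 of 7 KO arrays and on all arrays of the other groups. The Oas3 call was lost in 17 of 26 fits without 1 array and in 9 of 18 other fits, and the Oas1a call in 10 of 26 and 9 of 18. Oas2 (-0.98, adjusted p = 0.051) and Oasl2 (-0.81, adjusted p = 0.14) did not pass. In these 5 genes the values of KO mice lay closer together than those of WT mice.

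Usp18 fell by 1.30 (SE 0.38, adjusted p = 0.0071): WT mice lay between 9.76 and 11.05 and KO mice between 8.60 and 9.08. Its partner Isg15 differed by -0.83 (SE 0.50, adjusted p = 0.18), again without overlap (12.14 to 13.70 against 11.57 to 12.03). Rtp4, a chaperone for receptors on their way to the membrane, had the smallest adjusted p of the list. It fell by 1.09 (SE 0.25, adjusted p = 0.00081), from 12.31 to 13.01 in WT mice to 11.47 to 11.80 in KO mice. Igtp fell by 0.97 (SE 0.34, adjusted p = 0.022), Trim30a, a ubiquitin ligase that limits Toll-like receptor signalling, by 0.70 (SE 0.19, adjusted p = 0.0041), and Irf9, the DNA-binding part of the ISRE complex, by 0.54 (SE 0.19, adjusted p = 0.027). All 3 tested Trim30a probes and both Irf9 probes passed.

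Cxcl10, the chemokine that draws activated T cells, differed by -1.24 (SE 0.53, adjusted p = 0.058), with KO mice at 7.98 to 9.18 and WT mice at 9.07 to 11.46. Its second probe, with a mean log2 intensity of 5.27 against 9.39, went the other way (0.35, SE 0.19, limma adjusted p = 0.14). None of the IFIT genes passed (differences -0.76 to -0.42), nor did Mx2, Rsad2, Cmpk2, Irf7, Stat2 or any of the 5 sensors (-0.68 to 0.19). The members not below 0 were Eif2ak2 (0.13), Ifih1 (0.19) and Gbp2 (0.20).

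The number that passed depended on the arrays of the ChREBPβ line, since all 26 arrays shared 1 estimate of the spread. With only the 14 arrays of the total line fitted, 24 members passed, all lower (19.3% of all genes passed as lower), and without the 2 high arrays, a fit chosen after seeing the data, 25 passed, all lower (20.1%). In both fits the 9 members named above were among them. Leaving out 1 array at a time gave 5 (without WT mouse 8 of the total line, when Usp18, Mx1, Rtp4, Trim30a and Igtp passed) to 15 members. The share of all genes called in each of those fits is not given here. The median difference was negative within each of the 4 wash batches, at -0.35, -0.32, -0.62 and -1.03.

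Lymphocyte markers moved with this comparison. All 15 of them were lower in total ChREBP-KO mice (median -2.39), and their mean level ran from 10.44 to 12.03 in WT mice and from 7.80 to 10.83 in KO mice. Of the plasmacytoid dendritic cell markers, which include B-cell-expressed Ly6d, 4 of 5 were lower, and Siglech, the defining one, was higher by 0.16 (adjusted p = 0.028). Among macrophage markers 3 of 10 were lower and 1 higher, 9 of 10 adipocyte markers were higher and 4 of 12 skeletal muscle markers higher. Of all genes, 19.7% were called lower and 45.9% in either direction, so the macrophage and muscle counts were not far from the background. The part of these other cells was not tested beyond the covariates given here. With the lymphocyte level as a covariate, 1 member passed (Rtp4, lower; 5.78% of all genes were called lower), 33 of 35 differences were still below 0 and their median was -0.56. With the macrophage level as a covariate, added after seeing the data, Rtp4 and Trim30a passed (17.4% of all genes were called lower), 26 were below 0 and the median was -0.22.

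In ChREBPβ-KO mice no member passed against WT mice by limma, and 0.0472% of all genes did. None had an unadjusted p below 0.05 either, against 7.75% of all genes. The adjusted p ran from 0.875 to 0.996, and the median difference was -0.16. In 29 members the difference was below 0, against 49.5% of all genes, and in none were the groups free of overlap (0.378%). The 2 high arrays lay on opposite sides of this comparison. Without KO mouse 4 all 35 differences were below 0 (median -0.55), without WT mouse 3 there were 6 (median 0.11), and with both left out there were 30 (median -0.25). No member passed in any of these fits. Mx1 shows the layout: the 5 KO mice were at 7.03, 6.71, 10.59, 7.23 and 6.87, and the WT mice ran from 6.95 to 10.46 with a median of 7.60, so the groups overlapped. Within wash batches 1 and 4 the median difference was -0.49 and -0.40, and within wash batch 3, which held KO mouse 4, it was 0.85.

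The difference between both KO effects did not pass for any member by limma (23.1% of all genes passed). At an unadjusted p below 0.05 there were 2 members, against 35.4% of all genes. The difference was below 0 in 5 members and above 0 in 30, against 56.5% of all genes below 0. The largest were Cxcl10 (1.64, SE 0.78, adjusted p = 0.14) and Mx1 (1.44, SE 0.79, adjusted p = 0.20). The dimmer second Cxcl10 probe gave -0.24 (SE 0.29, limma adjusted p = 0.58). Without the 2 high arrays Usp18, Xaf1 and Rtp4 passed (19.5% of all genes), all with the larger fall in total ChREBP-KO mice. Without WT mouse 3 alone, Ifit2, Usp18, Xaf1, Rtp4 and Cxcl10 passed (23.6% of all genes).

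Between the WT mice of both lines, Ifih1 was the only member that passed, against 45.6% of all genes in either direction and 26.4% as higher. It was higher in the ChREBPβ line by 0.55 (SE 0.19, adjusted p = 0.021), with 9.74 to 11.09 in WT mice of the ChREBPβ line (median 10.15). Those of the total line began at 9.42 (median 9.60), and their highest mouse lay above the lowest of the ChREBPβ line, so the groups overlapped. No member was free of overlap (17% of all genes), and 11 differences were below 0 (45.6%). Without WT mouse 3 Ifih1 did not pass (0.40, adjusted p = 0.059) and Mx1, Trim30a and Igtp passed as lower (19% of all genes were called lower). Without both high arrays 9 members passed (45.9% of all genes), 8 of them lower in the ChREBPβ line (Usp18, Mx1, Ddx58, Bst2, Trim30a, Igtp, Irgm1 and Cxcl10) and Ifih1 higher. All 15 lymphocyte markers were lower in this line (median -4.34) and 7 of 10 macrophage markers higher. With the lymphocyte level as a covariate 0 members passed. The share of all genes for that fit is not given here, and in the total line this covariate also cut that share. The 0 is therefore not read as a result about the members. With the macrophage level, added after seeing the data, 7 passed, all lower (18.1% of all genes were called lower). Dim second probes of Dhx58 (0.68, adjusted p = 0.0083) and Xaf1 (0.30, adjusted p = 0.045) passed as higher where the brighter probe did not.

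Other genes of the pathway came from lists chosen by role. Of 12 tested ligand genes, 2 were higher in total ChREBP-KO mice (Ifnk by 0.34 and Ifna1 by 0.21) and 1 lower (Ifnl3 by 0.24 on the log2 scale), and the Ifna1 probe may also read other Ifna genes. Of 15 genes for receptors, kinases and signal transducers, 6 were lower and none higher, beside 19.7% of all genes called lower and 45.9% in either direction. Irf5 (-1.07, adjusted p = 0.0043) and Irf8 (-0.94, adjusted p = 0.0045), transcription factors of myeloid and B cells, had the largest differences.

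Of 15 sensors and adaptors, 10 were lower and 3 higher in total ChREBP-KO mice, to be read against the same shares (19.7% lower, 45.9% in either direction), as are the counts of the lists that follow. The DNA sensor Aim2 (-1.18) and Tmem173, which encodes STING (-0.97), led the lower ones, and the adaptor Myd88 (0.33) and the kinase Tbk1 (0.21) the higher ones. Of 10 negative regulators, 6 were lower, led by the phosphatase Ptpn6 (-1.99) and Socs1 (-1.03), and Pias4 was higher (0.20). Of 53 other interferon-stimulated genes, 20 were lower and 6 higher, with medians of -0.28 for the list and -0.68 for the 35 members. Ccl5 (-2.05) and Epsti1 (-1.94) fell most, and Cxcl9 (0.68) and Parp9 (0.37) rose most. Ccl5 is also made by T cells and Ptpn6 is expressed throughout blood cells. In ChREBPβ-KO mice no gene of these lists passed.

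The difference between both KO effects passed for 2 of 15 receptor and kinase genes (Tyk2 by 0.50 and Jak1 by 0.47), 4 of 15 sensors and adaptors, led by Ikbke (0.90) and Tmem173 (0.87), Ptpn6 among the negative regulators (1.79) and 8 of the 53 other genes, where 23.1% of all genes passed. Of these 8, Epsti1 (1.79) and Ifitm1 (1.39) were the largest of 6 with the larger fall in total ChREBP-KO mice, and Cxcl9 (-0.90) and Ifi27l2a (-0.33) went the other way.

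Between the WT mice of both lines, 8 of 15 receptor, kinase and transducer genes were lower in the ChREBPβ line, with Irf8 (-1.34) the lowest, and Ifngr1 was higher (0.38). Of all genes, 45.6% passed in either direction, made up of 26.4% as higher and the smaller rest as lower. These shares are the background of this and the following counts. Ligand calls were Ifnk (0.32) and Ifnl3 (-0.19). Of the sensors 8 were lower and 2 higher, with Tmem173 (-0.97) and Aim2 (-0.93) lowest and Tlr3 (0.30) among the higher. Of the negative regulators 4 were lower, led by Ptpn6 (-2.34) and Tnfaip3 (-1.33), and Ptpn11 was higher (0.29). Of the 53 other genes 11 were lower, led by Ccl5 (-3.40) and Epsti1 (-2.45), and 8 higher, led by Ifi205 (1.05) and Ifi204 (0.88), which encode DNA sensors of the IFI200 family.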

How the data were processed

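Gene expression was measured in inguinal fat of 26 mice on 1 array each. Scanner files hold spot intensity values on a linear scale, which the authors extracted with Agilent Feature Extraction 10.10.1.1. The deposited value table holds log2 values that the authors filtered on spot flags (26 of 32 arrays, or enough arrays of a group) and quantile normalized. It was used as an alternative: all 35 members had the same probe there, and values differed by at most 0.07.

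Here log2 median intensity was recomputed from the scanner files, with outlier spots set to missing. Spots found, positive and well above background on 21 of 26 arrays, or on 75% of a group, were quantile normalized and reduced to the median of replicated probes. Groups, replicate numbers and 4 wash batches came from the labels, and 15 slides and 2 scan days from the file headers. A mean per group was fitted to all 26 arrays with limma 3.58.1 (lmFit, eBayes) in R 4.3.3, with Benjamini-Hochberg adjustment over 38832 probes and a threshold of 0.05. SE is the standard error of this fit. The fits were tested on simulated data. The number of arrays limits the precision. Each p-value sets a difference against a spread between mice that was pooled over all 4 groups. The SD of the member mean within a group ran from 0.08 to 0.96. Marker levels are mean log2 intensities. Alternatives tried were other background corrections and normalizations, the filter, outlier spots, probe averaging, array weights, batch blocks, marker covariates and leaving out arrays.

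Described in detail were, in each comparison, the 5 members with the largest called rise and the 5 with the largest called fall, members whose probes disagree, the 2 largest called changes in each direction of each other list, and the 10 other genes most like the member mean. Further members were named to account for the list, and some items named by this rule are not reported here. The members and lists were chosen with earlier results of these data known. Promoters are from RefSeq (GRCm38.p6), and probe positions are mm9.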

Additional observations from a re-analysis of the deposited data

Results flagged for a closer look

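Single arrays stood apart from the rest of their group for 14 values of 10 named members and for the mean of the list, by Dixon's gap test at the 95% level within groups of 5 or 7 arrays. Chance flags about 1 in 20 groups, and the members move together, so these are not independent. All were the highest value of WT mouse 3 or KO mouse 4 of the ChREBPβ line. In WT mouse 3 they were Usp18 (log2 intensity 12.02), Oas3 (8.20), Oasl1 (12.73), Mx1 (10.46), Rtp4 (14.12) and the member mean (12.54). In KO mouse 4 they were Usp18 (12.11), Oas1a (14.68), Oas3 (8.41), Oasl1 (12.77), Mx1 (10.59), Irf9 (12.41), Ifih1 (11.21), Trim30a (10.46), Igtp (13.20) and the member mean (12.33). Over all 35 members, 24 stood apart in WT mouse 3 and 31 in KO mouse 4, against 2 in WT mice and 3 in KO mice of the total line. The share of all genes that stood apart by this test is not given here. More than 2-fold above the other arrays of the group were 1.99% and 3.04% of all genes on these 2 arrays. Both arrays were already known to be the highest, so the counts only describe them.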

How the results depend on the processing

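In the total line the median difference over the members stayed negative in every fit tried, but the number of members that passed varied from 1 to 25 around the 9 reported. It was 24 with the 2 groups alone, 25 without both high arrays, 16 with array weights, 2 with the macrophage level as a covariate, and 1 with the lymphocyte level, with lymphocyte and muscle levels, or with slide as a fixed block (8 residual degrees of freedom). Leaving out 1 array gave 5 to 15. For ChREBPβ-KO mice it was 0 in all 18 other fits and 26 fits without 1 array. For the difference between both KO effects it was 3 without both high arrays and 0 to 5 without 1 array; a fit of only the groups compared has no meaning there. Between WT mice of both lines it was 9 without both high arrays, 7 with the macrophage level, 4 with array weights, and 0 with the lymphocyte level, lymphocyte and muscle levels or slide as a fixed block, and 1 to 3 without 1 array. The counts here and in the next paragraph stand without the share of all genes called in the same fit. Where that share is given above, it also changed between fits. The counts are therefore not read as results about the members alone. The causes were not tested.

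Replicate numbers shared by groups did not pair the mice (r from -0.37 to 0.51 in the total line and -0.34 to 0.14 in the ChREBPβ line). With the replicate number as a block (15 residual degrees of freedom), 6, 0, 0 and 1 members passed in the 4 comparisons in the order above.

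The gap between the highest and the lowest array, as the median over members, was 1.00 in WT and 0.19 in KO mice of the total line, and 2.58 and 2.13 in those of the ChREBPβ line. Without both high arrays the last pair was 0.92 and 0.36. Leaving out 1 array gave 0.59 to 1.07, 0.16 to 0.22, 0.92 to 2.64 and 0.36 to 2.23. The fits without both high arrays, with the macrophage level and with scan day were chosen after seeing the data. The 9 members called in the total line and Ifih1 between the WT mice kept their sign in all fits. Oas3 lay near background in total ChREBP-KO mice, which limits its fold.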

Other observations

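Interferon-stimulated genes outside the list of 35 were also high on the same arrays. Of 53 such genes, 48 were at their highest of the group in WT mouse 3 of the ChREBPβ line (median log2 difference 1.07) and 42 in ChREBPβ-KO mouse 4 (0.81), and 41 in WT mouse 8 of the total line (0.45). Several genes that interferon γ induces stood higher in WT mouse 3 than in KO mouse 4. Gbp4 differed from the other mice of the group by 1.38 in the former and -0.19 in the latter, Gbp6 by 2.24 and 0.95, Gbp9 by 1.61 and 0.66, Cxcl9 by 1.00 and -0.31, and Irf1, a transcription factor of that response, by 0.95 and 0.18. Socs3, a feedback inhibitor that interleukin 6 also induces, went the other way, at -0.32 and 2.07. These genes were chosen after their values were seen, and with 1 mouse on each side no test was made.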
